A study of Mus musculus with 2 samples.

Results

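The transcripts described here are those of 9 plasma-protein genes, out of 55415 genes in the deposited gene table. They are Fga, Fgb and Fgg, which encode the 3 chains of fibrinogen, Plg, Vtn, Hp, Hpx, Gc and Trf. The cells are single biliary epithelial cells of the mouse, and their labels give 1 library as Sox9cKO and the other 1 as Sox9con. The genes were selected by name after their difference between these same libraries was known, so that difference is given as a description and nothing is supported with it. The questions addressed are how far the 9 transcripts lay in the same cells, how many cells held each of them, and how their level compared with that in cells that should lack them.

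The genotype is given by the labels only as Sox9cKO or Sox9con, and the title of the series calls the cells deficient in Sox9, a transcription factor of bile duct cells. The labels name no allele, no Cre driver, no age and no treatment, and each group is a single library. A difference between the libraries therefore has no replicate check, and genotype, animal and handling cannot be told apart. Cells were fixed and barcoded by splitting and pooling, with both random hexamer and oligo(dT) primers. The Sox9cKO cells lay in 5 first-round wells (A11, A12, B1, B2 and B3) and the Sox9con cells in 4 others (D9 to D12), so wells and libraries cannot be told apart either, and wells of 1 library are technical parts of it and not replicates. The 8 sublibraries each held cells of both, and 0 cell barcodes were shared by the libraries.

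The liver makes most proteins of the blood plasma, and in the healthy organ the hepatocyte is the main source of all 9 proteins treated here. Fibrinogen is the clot precursor that thrombin turns into fibrin, plasminogen (Plg) is the zymogen of the protease that dissolves fibrin, and vitronectin (Vtn) is an adhesive glycoprotein of plasma and matrix that binds integrins. Haptoglobin (Hp) binds free haemoglobin, haemopexin (Hpx) binds free haem, the vitamin D binding protein (Gc) also scavenges actin, and transferrin (Trf) carries iron. Fibrinogen, haptoglobin and haemopexin are classical acute-phase proteins whose genes answer to interleukin-6, whereas transferrin is a negative acute-phase protein. Biliary epithelial cells line the bile ducts and arise from the same progenitors as hepatocytes.

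The promoters of members that differed in the number of cells are shown, from the 250 bases before the gene start in RefSeq on GRCm38.p6. RefSeq promoters were matched for 6 of the 9 members (Fga, Fgb, Fgg, Vtn, Hpx and Gc). Fga (chr3:83025903-83026152, plus strand) and Fgb (chr3:83049864-83050113, minus strand) are neighbours on chromosome 3 with Fgg. In GENCODE M21, Fga is the only annotated gene that lies between Fgg and Fgb. Vtn (chr11:78498870-78499119, plus strand) was among the members seen in the most cells, and Hpx (chr7:105600117-105600366, minus strand) among those seen in the fewest. Capitals mark matches, on either strand, to TTNNGNAA (C/EBP), GTTAAT (HNF1), CTGGGAA (an element of interleukin-6 response) or TTCNNNGAA (STAT).
Fga: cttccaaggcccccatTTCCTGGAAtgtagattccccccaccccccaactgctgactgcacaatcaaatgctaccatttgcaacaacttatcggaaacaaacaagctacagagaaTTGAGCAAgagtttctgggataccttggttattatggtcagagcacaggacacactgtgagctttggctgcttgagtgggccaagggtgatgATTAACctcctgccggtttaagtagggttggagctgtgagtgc
Fgb: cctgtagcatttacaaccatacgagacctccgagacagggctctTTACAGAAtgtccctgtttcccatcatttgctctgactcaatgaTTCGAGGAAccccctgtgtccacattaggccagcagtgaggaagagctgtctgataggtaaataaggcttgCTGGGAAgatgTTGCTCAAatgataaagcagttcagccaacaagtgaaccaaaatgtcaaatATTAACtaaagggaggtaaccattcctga
Vtn: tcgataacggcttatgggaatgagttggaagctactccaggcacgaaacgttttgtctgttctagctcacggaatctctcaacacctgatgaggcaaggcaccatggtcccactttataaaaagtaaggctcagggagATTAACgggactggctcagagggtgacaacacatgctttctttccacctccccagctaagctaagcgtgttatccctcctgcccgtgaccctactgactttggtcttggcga
Hpx: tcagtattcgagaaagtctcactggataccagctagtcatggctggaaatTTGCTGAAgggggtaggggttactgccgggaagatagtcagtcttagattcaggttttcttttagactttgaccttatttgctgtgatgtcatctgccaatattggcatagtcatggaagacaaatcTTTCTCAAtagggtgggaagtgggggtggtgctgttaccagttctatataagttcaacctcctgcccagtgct

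TTNNGNAA was found in 3 of the 6 promoters (Fga, Fgb and Hpx), against 36.8% of 32851 promoter windows of the same length. GTTAAT was found in 4 (Fga, Fgb, Vtn and Gc), against 6.43% of windows. CTGGGAA was found in 3 (Fgb, Fgg and Gc), against 9.1%, and TTCNNNGAA in 2 (Fga and Fgb), against 7.02%. CAAAGTCCA, a core of HNF4 sites, was found in 0 of the 6 and in 0.384% of windows. Fgb and Hpx each held 2 matches to TTNNGNAA, Fga held 1, and Fgg, Vtn and Gc held 0. Hp, Trf and Plg had no promoter matched, and a link between matches and the number of cells was not tested. The neighbours Fga and Fgb, which differed in the number of cells, both held TTNNGNAA, GTTAAT and TTCNNNGAA. No matches overlapped each other. A match is a run of letters and not a binding site, and the absence of a match says only that the letters are not in this window.

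Cells were kept with at least 500 genes, at least 1000 UMIs (unique molecular identifiers, each standing for 1 counted molecule) and at most 15% mitochondrial UMIs. Cells with 5 or more UMIs over the endothelial genes Ptprb, Stab2, Kdr and Flt1 were set apart as endothelial-like and serve as background, since endothelial cells are no main source of these proteins. They were not free of biliary transcripts: the 16 biliary markers summed to 3475 CPM (CPM, a gene's UMIs over all UMIs of the same cells, times 1000000) in those of the Sox9cKO library (926 to 4613 over wells) and 2900 CPM in those of the Sox9con library, with Krt19 at 272 and 246 CPM. That left 2625 Sox9cKO cells with 14478645 UMIs (median 5124 per cell) and 3387 Sox9con cells with 12231490 UMIs (median 3223), beside 88 and 120 endothelial-like cells with medians of 2718.5 and 2419 UMIs. All 16 biliary markers were detected in both libraries, and the 4 endothelial genes used for the rule were at most 6.15 CPM in the remaining Sox9cKO cells. Sox9 itself had 1761 UMIs in the Sox9cKO cells (122 CPM) and 1779 in the Sox9con cells (145 CPM), a log2 ratio of -0.26 (-0.35 to -0.16), and it was higher in the Sox9cKO well in 10 of 20 well pairs. The targeted gene thus did not separate the libraries, the labels do not say which part of it was removed, and every direction below rests on the label alone. All intervals are exact 95% intervals and cover counting error only, and single-cell levels were not scaled to transcript length, so that members are not ranked by level.

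Summed over the 9, there were 10374 UMIs in the Sox9cKO cells (717 CPM, 703 to 730) and 441 in the Sox9con cells (36.1 CPM, 32.8 to 39.6). In endothelial-like cells the sum was 40 UMIs (126 CPM, 90.4 to 172) in the Sox9cKO library and 13 UMIs (34.0 CPM, 18.1 to 58.2) in the Sox9con library. The sum in the Sox9con cells thus lay within the counting interval of the endothelial-like cells of their own library, whereas that in the Sox9cKO cells lay well above theirs. Single members departed from the sum, Vtn in the Sox9con cells and Trf in the Sox9cKO cells, as their values show. All 9 were at least 2-fold higher in the Sox9cKO cells, which the selection of the genes used, and 2.31% of the 9376 genes with at least 200 UMIs were as well, while 1.75% were at least 2-fold lower. The higher share was 4.34% over genes with at least 20 UMIs and 15.1% over all genes with a UMI. All 9 were also higher in 20 of 20 well pairs, as were 7.68% of those genes, and in 8 of 8 sublibraries.

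Of the fibrinogen chains, Fga (ENSMUSG00000028001), the alpha chain, had 979 UMIs in the Sox9cKO cells (67.6 CPM) and 28 in the Sox9con cells (2.29 CPM). By well its level was 76.5 CPM in A11, 55.9 in A12, 68.5 in B1, 80.6 in B2 and 63.0 in B3, against 1.54 in D9, 2.54 in D10, 2.34 in D11 and 2.96 in D12. The wells of the libraries did not overlap, and the log2 ratio was 4.86 (4.34 to 5.48). Fgg (ENSMUSG00000033860), the gamma chain, had 925 and 57 UMIs (63.9 and 4.66 CPM), with 53.3 to 85.9 CPM over the Sox9cKO wells and 3.81 to 7.48 over the Sox9con wells, which gives 3.77 (3.39 to 4.19) on the log2 scale. Fgb (ENSMUSG00000033831), the beta chain, was counted 194 and 7 times, at a log2 ratio of 4.46 (3.48 to 5.88). Its level was 20.2 CPM in A11, 8.07 in A12, 14.3 in B1, 10.5 in B2 and 17.5 in B3, so it was 2.50 times as high in the highest as in the lowest Sox9cKO well, against 1.44 times for Fga. Fgb had 0.329 to 0.935 CPM over the Sox9con wells.

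Plg (ENSMUSG00000059481) had 250 UMIs in the Sox9cKO cells (17.3 CPM) and 3 in the Sox9con cells (0.245 CPM), a log2 ratio of 5.94 (4.57 to 8.42). It was evenly spread over the Sox9cKO wells, at 14.5 to 19.5 CPM. Plg had 2 UMIs in D9 and 1 in D11, and with 0 UMIs wells D10 and D12 allow up to 0.953 and 0.987 CPM. Plg overlaps Slc22a3 on the other strand in GENCODE M21. Fgg overlaps the predicted gene Gm30097 on the other strand, and Trf overlaps Gm20425 on its own strand. How the counting assigned such reads is not given in the sources used here, so the levels of these 3 transcripts are less certain.

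Vtn (ENSMUSG00000017344) had 3082 UMIs in the Sox9cKO cells (213 CPM) and 124 in the Sox9con cells (10.1 CPM), a log2 ratio of 4.39 (4.13 to 4.66). Its level was 243 CPM in A11, 176 in A12, 239 in B1, 247 in B2 and 182 in B3, and 8.19 in D9, 13.3 in D10, 12.2 in D11 and 7.89 in D12. Among the carriers, Gc (ENSMUSG00000035540) was counted 3181 and 131 times (219.7 and 10.7 CPM), at a log2 ratio of 4.35 (4.11 to 4.62). Gc stood at 243 CPM in A11, 191 in A12, 295 in B1, 178 in B2 and 211 in B3, with 8.88 to 12.2 CPM over the Sox9con wells. The Sox9cKO wells were not in the same order for both: B1 was the highest of the 5 for Gc and B2 for Vtn.

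Hp (ENSMUSG00000031722) had 983 UMIs in the Sox9cKO cells (67.9 CPM) and 15 in the Sox9con cells (1.23 CPM), a log2 ratio of 5.75 (5.06 to 6.63). Its level was 83.0 CPM in A11, 67.4 in A12, 69.6 in B1, 64.5 in B2 and 59.2 in B3, against 1.02 in D9, 0.636 in D10, 2.80 in D11 and 0.987 in D12. Hpx (ENSMUSG00000030895) was counted 246 and 11 times (17.0 and 0.899 CPM), with 13.7 to 21.6 CPM over the Sox9cKO wells and a log2 ratio of 4.18 (3.38 to 5.26). Trf (ENSMUSG00000032554) was counted 534 and 65 times (36.9 and 5.31 CPM), with the lowest log2 ratio of the 9, 2.79 (2.42 to 3.19). It was also the most uneven over wells, at 34.2 CPM in A11, 22.4 in A12, 61.5 in B1, 36.5 in B2 and 35.3 in B3. A single cell of well B1 held 46 Trf UMIs, 8.61% of all Trf UMIs of the library. Trf had 4.35 to 6.58 CPM over the Sox9con wells, below every Sox9cKO well.

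**Figure D1:**
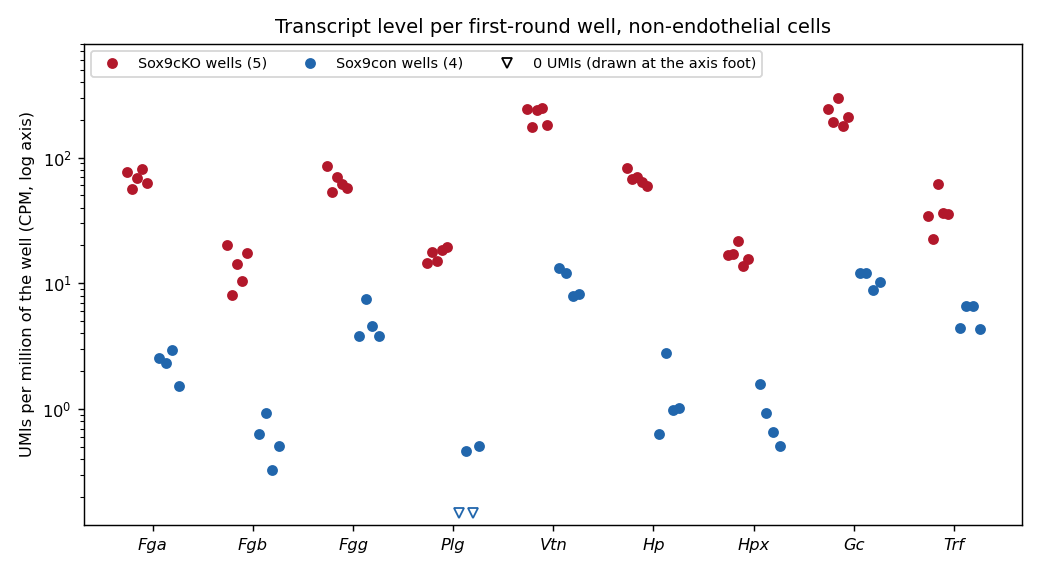
Level of each transcript in CPM of the well (log axis), with 1 point per first-round well, red for the 5 Sox9cKO and blue for the 4 Sox9con wells, endothelial-like cells left out. The wells of the libraries do not overlap for any of the 9, and the open triangles mark the 2 Sox9con wells in which Plg had 0 UMIs.

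In endothelial-like cells of the Sox9cKO library the transcripts were not equally represented. Gc had 19 UMIs there (60.1 CPM, 36.2 to 93.8), Trf 9 (28.5 CPM, 13.01 to 54.0), Vtn 6 (19.0 CPM, 6.96 to 41.3), Fga 4 (12.6 CPM, 3.45 to 32.4), and Fgg and Hpx 1 each. Fgb, Plg and Hp had 0, which allows up to 9.49 CPM, or a UMI in up to 3.41% of those cells. Gc and Vtn thus had 19 and 6 UMIs there, against 3181 and 3082 in the other cells of the library. A single endothelial-like cell held 10 of the 40 UMIs. The Trf level in endothelial-like cells had an interval that includes its level of 36.9 CPM in the other cells, so no excess of Trf over background was detectable from its summed level, although 89.0% of its UMIs lay in cells rich in the other members. In the endothelial-like cells of the Sox9con library there were 7 Gc, 3 Trf, 1 Fga, 1 Fgg and 1 Hpx UMIs and 0 of the other 4, which allows up to 7.85 CPM. Vtn was among those 4, and its 10.1 CPM in the other Sox9con cells (8.43 to 12.1) lay above that limit. By the exact interval, 0 Vtn UMIs allow up to 9.65 CPM, which overlaps the interval of the other cells.

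Of 2625 Sox9cKO cells, 832 held a Vtn UMI (31.7%, 29.9 to 33.5) and 802 a Gc UMI (30.6%, 28.8 to 32.4). Fga was seen in 498 cells (19.0%), Fgg in 470 (17.9%), Trf in 242 (9.22%), Hp in 238 (9.07%), Plg in 174 (6.63%), Hpx in 129 (4.91%) and Fgb in 108 (4.11%). In endothelial-like cells of that library, at a median of 2718.5 UMIs against 5124, the shares were 9.09% for Gc, 6.82% for Trf, 4.55% for Vtn, 2.27% for Fga, 1.14% for Fgg and Hpx, and 0 for the other 3. At an equal depth of 2000 UMIs per cell, with 143 shallower cells left out, the shares of Sox9cKO cells were 21.8% for Vtn, 19.8% for Gc, 9.56% for Fga, 9.14% for Fgg, 5.73% for Hp, 4.44% for Trf, 2.65% for Plg, 2.21% for Hpx and 1.79% for Fgb. The matching shares in 62 endothelial-like cells were 5.50% for Gc, 5.83% for Trf (1.79 to 15.7) and 3.32% for Vtn, with 26 shallower cells left out. No excess of the share of cells with Trf over these few cells was detectable.

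In the Sox9con library the shares were between 0.0886% for Plg (3 of 3387 cells) and 3.19% for Gc (108 cells). At 2000 UMIs they were between 0.0369% and 1.79% of 2815 cells, with 572 shallower cells left out, and for Gc and Trf they were below those of endothelial-like cells (4.66% and 2.90% of 76 cells, 44 left out). Every Sox9con share lay within the exact interval of the endothelial-like share of the same transcript, so no excess over background was detectable in the share of cells. For Vtn the values were 2.63% of Sox9con cells and 0 of 120 endothelial-like cells, which allows up to 2.5% by the limit of 3 counts and up to 3.03% by the exact interval.

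The number of cells that held a transcript did not follow from its count. Hp and Fga had nearly the same number of UMIs in the Sox9cKO cells, 983 and 979, but those of Hp lay in 238 cells and those of Fga in 498. An Hp cell held a mean of 4.13 Hp UMIs and an Fga cell 1.97 Fga UMIs. In the same way the 246 Hpx UMIs lay in 129 cells and the 250 Plg UMIs in 174. One-cell maxima were 32 UMIs for Hp, 14 for Fga, 22 for Vtn and 46 for both Gc and Trf.

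The members were compared at matched counts by the expected number of cells with a UMI once each was thinned to the 194 UMIs of Fgb. That number was 165 for Vtn, 161 for both Fga and Fgg, 156 for Gc and 144 for Plg. It was 124 for Trf, 112 for Hpx, 111 for Hp and 108 for Fgb. Fga was thus as broad as Vtn and Gc and did not go with Hp. Thinned to the 979 UMIs of Fga, Vtn would be seen in 523 cells, Gc in 474, Fga in 498 and Hp in 238.

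The lower number of cells with Hp held in every well. The ratio of cells with Hp to cells with Vtn at the Hp count was 0.454 in the library, and 0.441 in A11, 0.437 in A12, 0.450 in B1, 0.462 in B2 and 0.479 in B3. Between Hp and Fga the ratio was 0.477, with 0.423 to 0.513 over the wells, and it was below 1 in 8 of 8 sublibraries. Between Fga and Vtn it was 0.953 (0.877 to 1.08 over wells), so those 2 did not differ in one direction in all wells. Between Gc and Vtn it was 0.953 and below 1 in 5 of 5 wells (0.907 to 0.988), a small difference.

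The fibrinogen chains did not behave alike. Fgg and Fga had a ratio of 0.974 at matched counts (0.851 to 1.06 over wells), whereas Fgb, the third chain and their neighbour on the chromosome, had 0.673 of the cells of Fga at its own count of 194. That ratio was below 1 in 5 of 5 wells (0.619 to 0.873) and in 7 of 8 sublibraries. Of the 108 cells with Fgb, 65.7% also had Fga and 63.9% had Fgg. Of the 498 cells with Fga, 54.0% had Fgg, and of the 470 cells with Fgg, 57.2% had Fga.

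**Figure D2:**
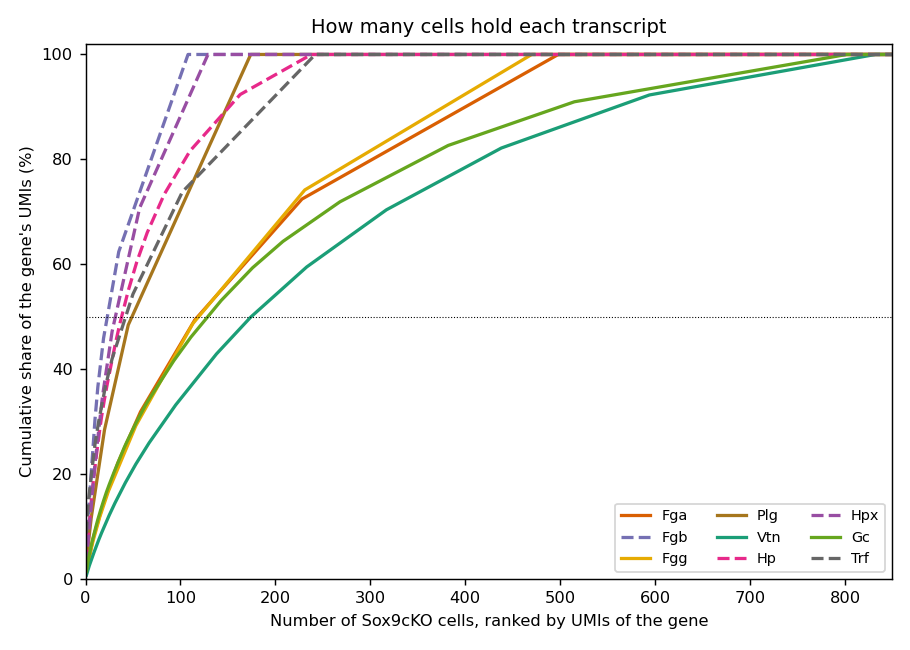
Cumulative share of each transcript's UMIs (percent) against the number of Sox9cKO cells, ranked from the cell with the most UMIs of that transcript; dashed lines mark Fgb, Hp, Hpx and Trf. The dotted line is at 50% of UMIs, which 39 cells reached for Hp and 119 for Fga, although both had nearly the same count.

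The 9 transcripts shared cells. No member was seen in 1364 Sox9cKO cells, exactly 1 in 443, and 2 or more in 818 (31.2%), while 126 cells had 6 or more and 7 cells had all 9. In the Sox9con library 3062 cells had none, 290 had 1, 29 had 2 and 6 had 3, the most seen in 1 cell. Cells with 3 or more member UMIs numbered 822 of 2625 in the Sox9cKO library (31.3%, 29.5 to 33.1) and 24 of 3387 in the Sox9con library (0.709%, 0.455 to 1.05). They numbered 4 of 88 and 0 of 120 among endothelial-like cells, the latter allowing up to 2.5%.

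For each member, the share of its UMIs was taken in the cells with 3 or more UMIs of the other 8. It was 96.4% for Hp (95.1 to 97.5), 93.5% for Hpx, 92.3% for Fgb, 90.0% for Plg, 89.0% for Trf, 88.7% for Fga and 87.9% for Fgg. It was lower for the 2 most counted members, 78.9% for Gc (77.4 to 80.3) and 76.2% for Vtn (74.6 to 77.6). With the UMIs of Gc or Vtn left out, fewer cells passed, 699 (33.5% of all UMIs) and 652 (32.5%). For the other members 783 to 820 cells passed, with 37.6% to 39.0% of all UMIs, so the lower shares do not show less sharing. The same cells held 32.5% to 39.0% of all UMIs. The rest of the UMIs of each lay in cells with at most 2 UMIs of the others.

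As counted, sharing was nested. Of the 238 cells with Hp, 190 (79.8%) also had Vtn and 210 (88.2%) had Gc, but of the 832 cells with Vtn 22.8% had Hp, and of the 802 cells with Gc 26.2% had it. Vtn and Gc had many more UMIs than Hp, and at 194 UMIs for every member the shares were far less unequal. Hp and Vtn then shared 21.3% of Hp cells and 14.3% of Vtn cells, and Hp and Gc 33.8% of Hp cells and 24.1% of Gc cells. The other shares in this paragraph are as counted. Of the 129 cells with Hpx, 82.2% had Vtn, 86.8% had Gc and 62.0% had Hp. Vtn and Gc were together in 513 cells, 61.7% of Vtn cells and 64.0% of Gc cells, so each was also seen without the other in a sizeable part of its cells. Hp and Trf were together in 110 cells, 46.2% of Hp cells and 45.5% of Trf cells.

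Sharing beyond what depth gives was measured as the number of cells with both transcripts over the number expected were they independent of each other. The expected number took each member's own number of cells at 194 UMIs, weighted by cell depth. All 36 pairs lay above 1, between 2.36 and 6.99. After the values were seen, Fgb, Hp, Hpx and Trf were grouped as narrow, and the 6 pairs among them lay between 4.69 and 6.99 with a median of 5.47. The 10 pairs among Fga, Fgg, Plg, Vtn and Gc lay between 2.36 and 3.32 with a median of 2.88, and the 20 mixed pairs between 2.46 and 4.60 with a median of 3.14. The expected number is lower for members seen in fewer cells, and the narrow members are those with the fewest. Their higher ratios, here and below, are therefore not independent of the grouping. As a share of the cells of either member, the narrow pairs overlapped in 23.9% to 37.0%. Pairs among Fga, Fgg, Plg, Vtn and Gc overlapped in 17.2% to 25.1%. The highest ratio of all was that of Hp with Hpx, the carriers of haemoglobin and haem, at 6.99, and the lowest that of Vtn with Gc at 2.36. Gc was intermediate, since it reached 4.60 with Hp and 4.47 with Hpx but stayed at 2.46 with Fga and 2.50 with Fgg. By well, the median of the pairs among the narrow members was 6.02 in A11, 6.55 in A12, 5.63 in B1, 5.01 in B2 and 5.65 in B3, above that of both other groups of pairs in each (2.57 to 3.75). Within the cells with 3 or more UMIs of the remaining members, the narrow pairs still had a median of 2.20 and the broad pairs 1.19. All these ratios are of the Sox9cKO library. In the Sox9con library, as counted, Vtn and Gc were together in 9 cells against 3.56 expected, and Gc and Trf in 9 against 2.33. Vtn and Trf were together in 6 against 1.92, Fgg and Gc in 5 against 2.05, and Fgg and Trf in 3 against 1.10. Fgg and Vtn went the other way, with 1 cell against 1.69. The other members had at most 28 UMIs there.

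**Figure D3:**
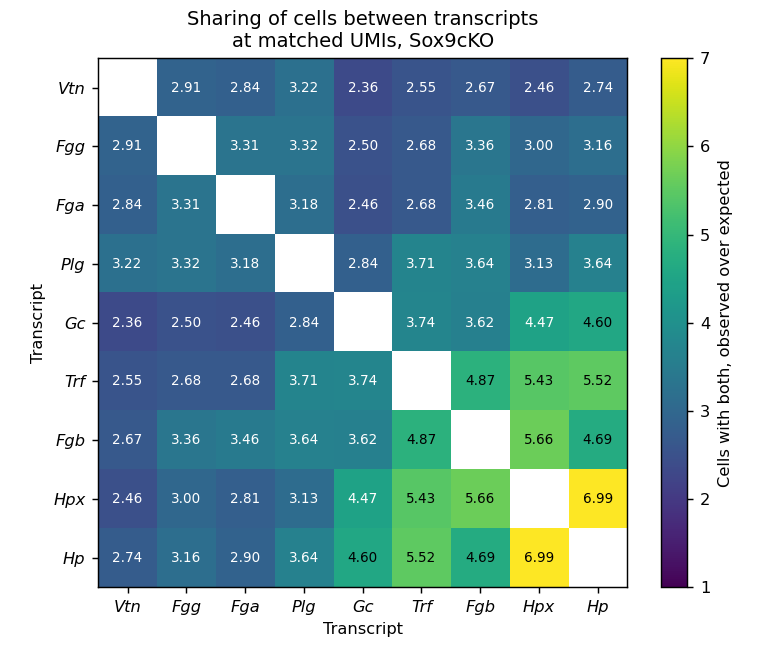
Cells with both transcripts of a pair in the Sox9cKO library, observed over expected, after every transcript was brought to 194 UMIs. The expected number takes each transcript's own number of cells and cell depth, and is lower for transcripts seen in fewer cells. Colour and number give the same ratio. The block of Trf, Fgb, Hpx and Hp at the lower right holds the highest ratios (4.69 to 6.99), and Gc reaches 3.62 to 4.60 with that block.

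To describe the narrow and the broad pattern, 163 Sox9cKO cells with 2 or more Hp UMIs were set beside 439 cells with 2 or more Vtn UMIs and no Hp UMI, a choice made after the values were seen. Their median depths were 7356 and 6060 UMIs. The cells with Hp had higher levels of Hpx (118 against 10.4 CPM, log2 ratio 3.47, 2.93 to 4.11), Trf (196 against 38.5 CPM, 2.34, 2.02 to 2.68), Fgb (75.6 against 14.9 CPM, 2.32, 1.81 to 2.89) and Gc (948 against 300.4 CPM, 1.66, 1.53 to 1.79), each in 5 of 5 wells. Plg was higher by a log2 ratio of 0.72 (0.28 to 1.16), in 4 of 5 wells. Fga and Fgg were at like levels in both, with log2 ratios of 0.06 (-0.18 to 0.30) and 0.08 (-0.16 to 0.32). The Hp cells did not have more albumin: Alb, the main plasma protein, was at 789 against 1241 CPM (-0.65, -0.76 to -0.55). Krt19, a keratin of bile duct cells, was at 263 against 662 CPM (-1.33, -1.50 to -1.16). Sox9 was at 143 against 135 CPM (0.07, -0.19 to 0.33), and Spp1, a secreted phosphoprotein abundant in bile duct cells, at 3017 against 3159 CPM.

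Among all 5845 genes with at least 100 UMIs in these cells, 2.05% were at least 2-fold higher and 2.38% at least 2-fold lower in the Hp cells. After Hpx, the highest were Gxylt2, a xylosyltransferase (75.6 against 9.72 CPM, log2 ratio 2.93), Dock10 (2.64), Rgs5, a regulator of G-protein signalling often used as a pericyte marker (288 against 46.2 CPM, 2.64), Kcnip4, a potassium channel interacting protein (575 against 95.5 CPM, 2.59), and the chemokine Ccl2 (175 against 32.6 CPM, 2.42). Scube3 (2.42), Cd74, the invariant chain of MHC class II (346 against 66.3 CPM, 2.38), Trf and Serpina1e (2.33) completed the 10 highest. The lowest were Fut9, a fucosyltransferase (2 and 121 UMIs, log2 ratio -4.55, -7.81 to -2.87), lipoprotein lipase Lpl (3 and 108 UMIs, -3.87, -6.30 to -2.42), the guidance ligands Slit3 (10.9 against 149 CPM, -3.74) and Ntn1 (-3.23), Dock11 (-2.82), Ugt1a8 (-2.80), Tmc5 (-2.71), Fcgbp (-2.52), Tmem45b (-2.39) and Setbp1 (-2.31). All 20 had the same direction in 5 of 5 wells except Dock10, with 4 of 5.

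**Figure D4:**
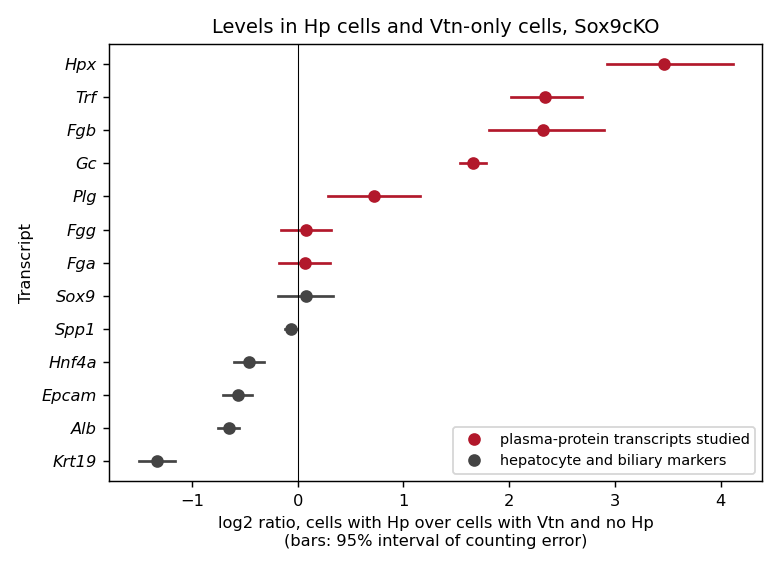
Log2 ratio of the level in 163 cells with 2 or more Hp UMIs over that in 439 cells with 2 or more Vtn UMIs and no Hp UMI, in the Sox9cKO library; points are ratios, bars 95% intervals of counting error, red the plasma-protein transcripts and grey the markers. Hpx, Trf, Fgb and Gc lie to the right of 0, Fga and Fgg on it, and Krt19 and Alb to the left.

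The cells with the 9 transcripts were checked against markers of biliary cells and hepatocytes. In the 822 Sox9cKO cells with 3 or more member UMIs, all 16 biliary markers were detected, and their sum was 12100 CPM (10959 to 13469 over wells), against 12554 CPM (11500 to 13947) in the 1364 cells with 0 member UMIs and 18390 CPM (14778 to 21811) in the Sox9con cells. Of 28 intracellular hepatocyte markers, 24 were detected there, 24 in cells with 0 and 26 in the Sox9con cells. Their sum was 782 CPM (695 to 911 over wells), against 603 CPM (564 to 649) in cells with 0 and 623 CPM (565 to 651) in the Sox9con cells. Most of each sum was Hnf4a, with 2996 of 4427 UMIs, 2847 of 3930 and 4528 of 7622 in the same order. In the cells with 3 or more member UMIs, Cyp1a2, Cyp7a1, Hpd and Hal were at 0. Cyp7a1 is the rate-limiting enzyme of bile acid synthesis, and Cyp2e1, a very abundant hepatocyte cytochrome, had 2 UMIs there. Cyp1a2, Cyp7a1 and Hpd were also at 0 in the cells with 0 member UMIs. Another 5 markers of this list, named after their values were seen, lay mostly in the cells with 3 or more member UMIs, with 84 of 90 Tat UMIs, 44 of 47 of Bhmt, 60 of 70 of G6pc, 22 of 28 of Fbp1 and 10 of 11 of Tdo2. Cps1, an enzyme of the urea cycle, was at 10.8 CPM (8.25 to 13.8) in cells with 3 or more member UMIs and 10.9 CPM (8.51 to 13.8) in cells with 0. Hnf4a, a hepatocyte transcription factor that was detected in all classes, was at 529 against 437 CPM. The median depth of these classes was 6294 and 4569 UMIs, and the part of depth in these levels was not tested.

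Single markers did differ between these cells. Alb was at 1029 CPM in cells with 3 or more member UMIs, 563 in cells with 1 or 2 and 208 in cells with 0, and at 363 CPM in the Sox9con cells. Krt19 had the opposite order, at 529, 1047 and 1227 CPM, as did Epcam, an epithelial adhesion molecule, at 599, 858 and 1001 CPM. Spp1 was at 2916, 1956 and 1402 CPM, and Sox9 at 135, 129 and 108 CPM. Of 12 immune markers, 4 were detected in cells with 3 or more member UMIs (54.3 CPM) and 8 in cells with 0 (31.6 CPM). In the former Ptprc and Clec4f were at 0, and Csf1r alone gave 271 of the 307 UMIs. The 12 mesenchymal markers summed to 360 against 317 CPM and the 10 endothelial markers to 30.0 against 38.5 CPM. Reln (1119) and Rgs5 (812) gave most of the 2036 mesenchymal UMIs in cells with 3 or more member UMIs, so these sums rest on single genes of the lists. Their part in the result was not tested.

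The genes most like the 9 were sought by how much of a gene's UMIs lay in the 822 Sox9cKO cells with 3 or more member UMIs. Those cells held 39.1% of all UMIs, so that a gene confined to them would be concentrated there 2.56-fold, and the 9 members, which define the cells, had 2.40 to 2.51. Of 7466 genes with at least 200 UMIs, 0.589% had a concentration of at least 2. The 10 highest other genes were Serpina1e (97.6% of 211 UMIs), Ahsg (96.7% of 426), Serpina1b (585 of 616 UMIs), Serpina1c (94.1% of 1115), Fst (91.3% of 700), Cdh2 (87.4% of 486), Nrn1 (87.0% of 285), Ces1c (86.4% of 1525), Cpe (85.7% of 512) and Fabp5 (85.0% of 200). Serpina1b, c and e encode alpha-1-antitrypsins, which come from gene copies so alike that reads may be split among them, and the level of each copy is uncertain. Ahsg encodes the plasma glycoprotein fetuin-A and Ces1c a plasma carboxylesterase. Fst encodes follistatin, an activin antagonist, and Cdh2 is N-cadherin, which hepatocytes carry beside E-cadherin.

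In the Sox9con library Serpina1e had 0 UMIs and Serpina1b 5, but Ahsg had 136, Cdh2 143 and Cpe 144. The 24 Sox9con cells with 3 or more member UMIs held 1.03% of all UMIs, and in them lay 16 of 78 Serpina1c UMIs and 14 of 143 of Cdh2. The other named genes had few UMIs there, with 8 of 136 of Ahsg, 5 of 144 of Cpe, 3 of 76 of Ces1c, 2 of 69 of Nrn1, and 1 each of Serpina1b, Fst (37 in all) and Fabp5 (73 in all). Those 24 cells had Alb at 1107 CPM (931 to 1306) and Krt19 at 403 CPM (300.3 to 530.2). In all Sox9con cells Alb was at 363 and Krt19 at 1619 CPM. Their Spp1, at 7686 CPM (7210 to 8185), was above that of all Sox9con cells, 4107 CPM.

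Other genes of the same pathways were taken from lists by function, with at least 20 UMIs over both libraries. Over all 15015 genes of that depth, 4.34% were at least 2-fold higher and 4.84% at least 2-fold lower in the Sox9cKO cells, and the median log2 ratio was -0.09. Of the coagulation factors and inhibitors, 6 of 15 were at least 2-fold higher and 0 lower, with a median of -0.06. The highest were F12, the contact factor XII (135 and 6 UMIs, log2 ratio 4.15), F2, prothrombin (27 and 2 UMIs, 3.24, 1.52 to 6.63), Serpind1, heparin cofactor II (2.71), and Klkb1, plasma prekallikrein (2.45). The lowest were Tfpi (-0.90) and antithrombin Serpinc1 (-0.60). F3, tissue factor, which starts coagulation, was abundant in both libraries (1271 and 1513 CPM), and 20.7% of its UMIs lay in the cells with 3 or more member UMIs, below the 39.1% of all UMIs. It was named after its values were seen.

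Of the genes of the plasmin system, 4 of 12 were at least 2-fold higher and 0 lower, with a median of 0.35. Among them were antiplasmin Serpinf2 (21 and 3 UMIs, log2 ratio 2.40, 0.82 to 4.95), urokinase Plau (26.3 and 7.36 CPM, 1.83) and Cpb2 (1.78). Anxa2 and S100a10, which together bind plasminogen at the cell surface, were the lowest, at -0.85 and -0.81. Of the receptors of members, 2 of 13 were at least 2-fold higher, Itgb3 (25 and 1 UMIs, 3.89, 1.79 to 9.76), part of a vitronectin receptor, and Lrp2 (26 and 4 UMIs, 2.33), a receptor for Gc. Over genes with at least 50 UMIs the counts were 0 of 11 receptors and 2 of 10 plasmin genes. Itgb6 (0.72) and Cubn (0.60) followed, and Itgam (-0.87) and Itga2b (-0.44) were the lowest.

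Of 18 complement genes, 10 were at least 2-fold higher and 1 lower, with a median of 1.56. C1s1, a C1 protease, was counted 130 and 8 times (log2 ratio 3.70), C8a 18 and 2 (2.67, 0.86 to 6.08), and C3, the central component, 22177 and 4640 (2.01). The lowest were Masp2 (-1.08) and C8b (-0.84). Of 9 acute-phase genes, 3 were at least 2-fold higher and the median was 0.46, with Itih4 (182 and 5 UMIs, 4.82), Steap4 (1.55), Lcn2 (1.02) and Lbp (0.65) highest and Crp (-0.58) and Hamp (-0.51) lowest. Of 18 other plasma-protein genes, 9 were at least 2-fold higher and 1 lower, with a median of 0.96. Serpina6, corticosteroid-binding globulin, was counted 138 and 7 times (3.97), apolipoprotein Apob 4748 and 694 (2.53), Itih2 2434 and 375 (2.45) and retinol carrier Rbp4 472 and 75 (2.40). Transthyretin Ttr (-1.18) and Apoe (-0.94) were the lowest. For Alb, with 8476 and 4441 UMIs, the log2 ratio was 0.69 (0.64 to 0.74), below that of all 9 members.

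Of 17 genes of interleukin-6 signalling, which acts on the fibrinogen, Hp and Hpx genes, 0 were at least 2-fold higher and 1 lower, with a median of -0.08. These counts, and those of the iron and haem genes, are near the shares over all genes. Il6ra (0.37), Il11 (0.31), Il6st (0.22) and Osmr (0.20) were the highest, and Cebpd (14.0 and 37.4 CPM, -1.41, -1.66 to -1.18) and Il11ra1 (-0.66) the lowest. Of 10 iron and haem genes, 0 were 2-fold higher or lower, with Hmox1, haem oxygenase, highest (0.66), then Bmp6 (0.28), Aco1 (0.21) and Ireb2 (0.12), and the ferritin chains Ftl1 (-0.95) and Fth1 (-0.73) lowest. Of 17 intracellular hepatocyte markers, 4 were at least 2-fold higher and 0 lower, with a median of 0.04. They were Bhmt (47 and 4 UMIs, 3.17), Tat (90 and 16, 2.22), Fbp1 (28 and 6, 1.90) and G6pc (70 and 23, 1.35), and 78.6% to 93.6% of their UMIs lay in the cells with 3 or more member UMIs. Fabp1 (-0.68) and Cps1 (-0.65) were among the lowest. Of 16 biliary markers, 0 were 2-fold apart, with a median of -0.53. Bicc1 (0.45), Sctr (0.35), Tspan8 (0.04) and Cdh1 (-0.18) were the highest and Spp1 (-0.98) and Cldn7 (-0.93) the lowest, with Krt19 at -0.81 and Epcam at -0.46. Of the cell types set aside, 1 of 9 endothelial markers was 2-fold higher (Flt1, 1.22) and 1 lower (Kdr, -1.02), 0 of 9 mesenchymal markers were 2-fold apart, and 1 of 4 immune markers was higher (Ptprc, 1.74, with 0 of its 21 Sox9cKO UMIs in the cells with 3 or more member UMIs).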

How the data were processed

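Transcripts were counted in 2 libraries of mouse biliary epithelial cells. The authors' deposited values are raw UMI counts, in whole numbers for each gene and cell, per the file headers, on GRCm39 per the submitters' processing notes. Aligner, annotation release and cell calling are not given in the sources used here. Everything else was computed from the deposited counts in Python 3.11.15: filters, sums, CPM with 0.5 counts added in log2 ratios, and exact Poisson, Clopper-Pearson and conditional binomial 95% intervals. A count of 0 is taken to allow up to 3. Scrublet, run through scanpy 1.11.5, marked 12 of 6220 kept cells (0.193%), too few to have worked, and no cell was removed as a doublet. An alternative removed the 228 cells with the highest scores. With 1 library per group there is no test and no p-value. The numbers of cells at matched counts are expectations over random thinning, computed and not drawn. These functions were tested on simulated data.

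The 9 genes and all lists were chosen with earlier results of these data known. The genes named are the members, the 10 genes most concentrated in cells with 3 or more member UMIs, up to 4 highest and 2 lowest genes of each list, and fixed hepatocyte and biliary markers. A few list genes that this rule names are not reported here. For the endothelial, mesenchymal and immune lists the report gives counts and the genes past 2-fold. The alternatives covered cells, doublets, normalization (edgeR 4.0.16 and DESeq2 1.42.0 size factors), thinning depth, thresholds and single wells.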

Additional observations from a re-analysis of the deposited data

How the results depend on the processing

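All 9 members remained at least 2-fold higher in the Sox9cKO cells under the 17 alternatives run for levels. The log2 ratio of Gc was 4.06 and that of Trf 2.37 with a mean of per-cell CPM, outside their counting intervals. The breadth ratios of Hp to Vtn (0.448 to 0.466), Hp to Fga (0.470 to 0.502), Fga to Vtn (0.919 to 0.971) and Fgb to Fga (0.632 to 0.699) kept their direction under the 10 alternatives run, which include leaving out each well and, chosen after seeing the data, the top cell of each member. The share of UMIs in cells with other members depends on the threshold: with 2 or 5 in place of 3 UMIs it was 83.2% or 61.6% for Vtn and 97.8% or 93.2% for Hp, and 78.0% for Vtn without well A11. Summed member CPM in Sox9cKO endothelial-like cells was 183 (110 cells) with at least 3 endothelial UMIs and 71.7 (74 cells) with at least 10. With a gene minimum of 100 UMIs, 6 of the 10 genes most like the members kept their place. Background shares rest on few cells (88 and 120), and the 24 Sox9con cells with 3 or more member UMIs allow no finer comparison. No paired analysis was possible because each group is 1 library.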
